A study of Rattus norvegicus with 10 samples.

Results

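The respiratory chain genes examined here were the nuclear genes for complexes I to V of the inner mitochondrial membrane, as measured in rat mammary gland after feeding on 1 of 3 purified diets. A gene belonged to the set when its symbol on the array began with Nduf, Sdh followed by a to d, Uqcr, Uqcc, Cox4 to Cox8, Cox10 to Cox19 or Atp5, or was Cyc1 or Cycs. The rule found 102 genes among the 10411 genes that had a probe set with a single symbol, and the rule itself uses symbols and no difference between diets. They comprised 39 genes of complex I, 8 of complex II, 13 of complex III, 26 of complex IV and 16 of complex V. Each gene was read from its brightest probe set, and 95 of the 102 were bright enough to be tested. The 7 that were too dim were Cox6a2, Cox7a1, Cox8b, Cox6b2, Cox11, Sdhaf3 and Cox6c-ps1. Cycs and Cox7a2 had no probe set of their own under this rule and were not analysed here, and none of the chain subunits encoded in mitochondrial DNA was named on the array.

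All animals were female Sprague-Dawley rats at postnatal day 50, and diet was the one stated difference between the groups. The groups were SPI with 4 arrays, GEN with 3 and CAS with 3. By the title of the series GEN is genistein, an isoflavone of soy. SPI and CAS are not spelled out in the labels; from knowledge of the study they are soy protein isolate and casein, with CAS taken as the reference diet. Each array carried RNA pooled from 2 animals, and 3 labelled targets were prepared per pool. It is not stated which arrays share a pool, and part of the spread behind each p-value may therefore be technical. The labels are not uniform about the tissue: mammary epithelial cells are given as the source, mammary gland in the labelling protocol, and colon appears beside it in the text on the design. Milk protein genes were bright on every array: Csn2, the beta-casein gene, had signals of 2245 to 9819 on SPI, 12614 to 18876 on GEN and 2330 to 14829 on CAS. The adipocyte fatty acid carrier gene Fabp4 was also bright, with signals of 12584 to 16003 on SPI, 13926 to 14538 on GEN and 10206 to 14831 on CAS.

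The respiratory chain passes electrons from NADH through complex I, or from succinate through complex II, to ubiquinone, then through complex III and cytochrome c to complex IV, which reduces oxygen. Complexes I, III and IV pump protons, and complex V, the ATP synthase, uses the resulting gradient to make ATP. Most subunits are encoded in the nucleus, and separate assembly factors insert cofactors and join the modules without staying in the finished enzyme. In the mammary gland the secretory epithelium needs ATP for the synthesis of milk protein, fat and lactose, while white fat cells, the other large part of the gland, hold few mitochondria.

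Across the chain, the differences between diets were small, and none passed the test after adjustment. On GEN, 76 of the 95 tested genes had a fitted difference above 0 against CAS, with a median log2 difference of 0.11; over all 7119 tested genes 46.2% lay above 0 and the median was -0.02. On SPI against CAS, 69 of 95 lay above 0 with a median of 0.07, beside 48.3% and a median of -0.01 over all tested genes. On SPI against GEN, 37 of 95 lay above 0 with a median of -0.04, beside 51.1% and 0.01 over all tested genes. The SPI and GEN comparisons with CAS share the same 3 CAS arrays, and genes of 1 chain measured on the same arrays are not independent, so these counts describe the arrays. Differences of the members lay within 0.5 log2 of 0 for 94 genes in SPI against CAS, 93 in GEN against CAS and 93 in SPI against GEN, and so did those of 6779, 6719 and 6687 of all 7119 tested genes.

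With limma and Benjamini-Hochberg adjustment over 9520 probe sets, 0 of 95 members had an adjusted p under 0.05 in SPI against CAS, GEN against CAS or SPI against GEN. The share of all probe sets called at that threshold was 0% in each comparison. The lowest adjusted p of a member was 0.987 in SPI against CAS, 0.825 in GEN against CAS and 0.558 in SPI against GEN. At an unadjusted p under 0.05, 2 members were called in SPI against CAS, both higher (2.11% of members, beside 4.82% of all probe sets, 1.53% higher and 3.29% lower). In GEN against CAS, 9 members were called, 7 higher and 2 lower (9.47%, beside 5.89% of all probe sets, 2.7% higher and 3.19% lower). In SPI against GEN, 2 members were called, both higher (2.11%, beside 7.95% of all probe sets, of which 3.7% were higher). With both directions pooled, the share of members was below the background in both comparisons of SPI and above it in GEN against CAS. Among higher calls alone, the 2.11% of members lay above the background of 1.53% in SPI against CAS and below that of 3.7% in SPI against GEN. Each of these SPI shares rests on 2 genes, and the count ran from 0 to 5 in SPI against CAS and from 1 to 9 in SPI against GEN with 1 array left out. The count of 9 fell to 2 without array CAS 2, to 2 without GEN 5, to 4 without GEN 3 and to 4 without SPI 3, and it stood at 12 without GEN 1.

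**Figure D1:**
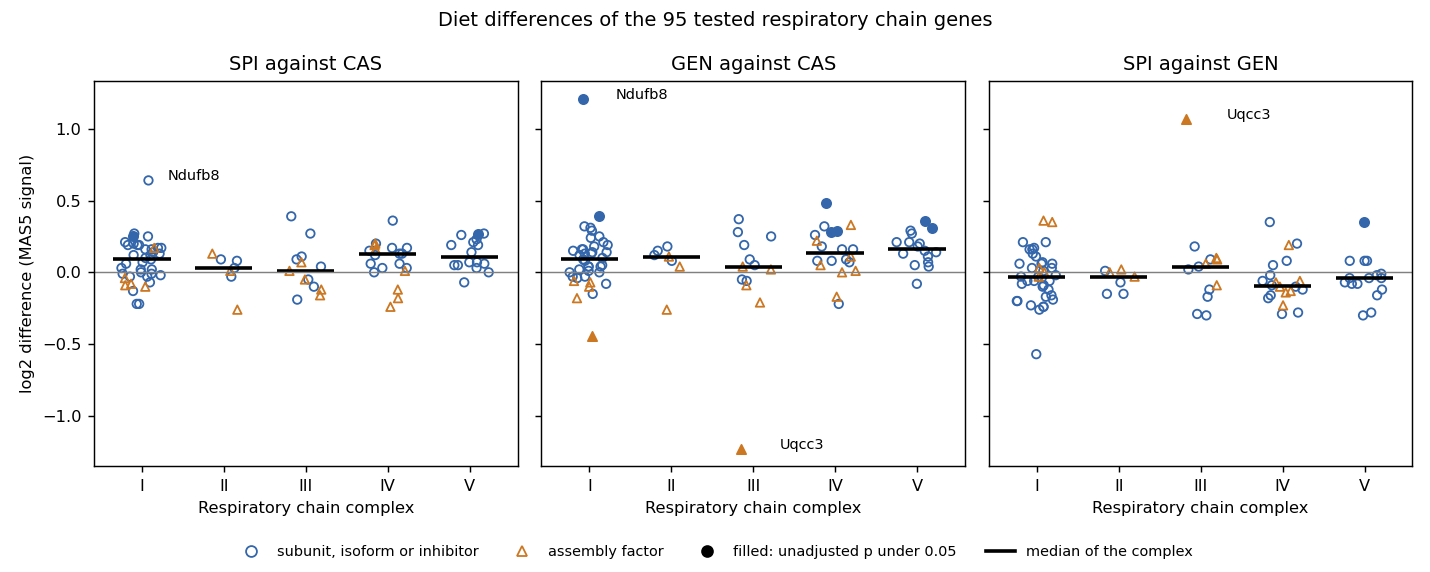
Log2 difference of MAS5 signal (vertical axis) for each of the 95 tested genes, by respiratory chain complex (horizontal axis), in SPI against CAS, GEN against CAS and SPI against GEN. Circles are subunits, isoforms and the inhibitor, triangles are assembly factors, filled symbols have an unadjusted p under 0.05 and bars are the median of each complex. Medians of all 5 complexes lie between 0.04 and 0.17 in GEN against CAS, and Ndufb8 and Uqcc3 stand far from the rest.

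Subunits and assembly factors were described separately. Of the 72 subunit genes tested, 58 had a difference above 0 in SPI against CAS (median 0.10), 64 in GEN against CAS (median 0.14) and 26 in SPI against GEN (median -0.06). Of the 20 assembly factor genes tested, 9 lay above 0 in SPI against CAS (median -0.05), 10 in GEN against CAS (median -0.03) and 10 in SPI against GEN (median 0.00). The difference between these classes was not tested. These medians depended on single arrays and on the processing. For GEN against CAS the median was 0.08 without GEN 5, with 57 of 72 above 0, and 0.11 without CAS 2, with 56 above 0. In SPI against CAS it was 0.05 without CAS 2, with 49 of 72 above 0, and 0.15 without SPI 2, with 58 above 0. The subunit median of SPI against GEN ran between -0.12 without GEN 1 and -0.01 without SPI 2. The assembly factor median of SPI against CAS changed sign to 0.03 without CAS 3, with 11 of 20 above 0, and was -0.10 without CAS 2, with 5 above 0. It also changed sign to 0.03 with each array centred on its median and to 0.01 with quantile normalization. With the mean over the probe sets of a gene it was 0.01, with 10 of 18 above 0. For GEN against CAS the assembly factor median was 0.02 without CAS 3 and -0.10 without CAS 2, with 6 of 20 above 0. With quantile normalization, 51 of 72 subunit genes lay above 0 in SPI against CAS (median 0.06). With replicate number as a block, 51 of 72 subunit genes lay above 0 in SPI against CAS as well (median 0.06). In that fit 51 did so in GEN against CAS (median 0.08) and 33 in SPI against GEN (median -0.03).

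By array, the members' median deviation from each gene's own mean was -0.01, 0.04, 0.00 and 0.07 log2 on SPI 2, 3, 4 and 5. It was -0.05, 0.06 and 0.13 on GEN 1, 3 and 5, and -0.08, -0.16 and 0.00 on CAS 1, 2 and 3. The diet means of these medians were 0.03 ± 0.04 on SPI (SD, n = 4), 0.05 ± 0.09 on GEN (SD, n = 3) and -0.08 ± 0.08 on CAS (SD, n = 3). CAS 2 was the lowest array and GEN 5 the highest, and the arrays of GEN and CAS overlapped: GEN 1 lay below CAS 3. On CAS 2, 20 of 95 members lay above their own mean, and on GEN 5, 69 did.

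**Figure D2:**
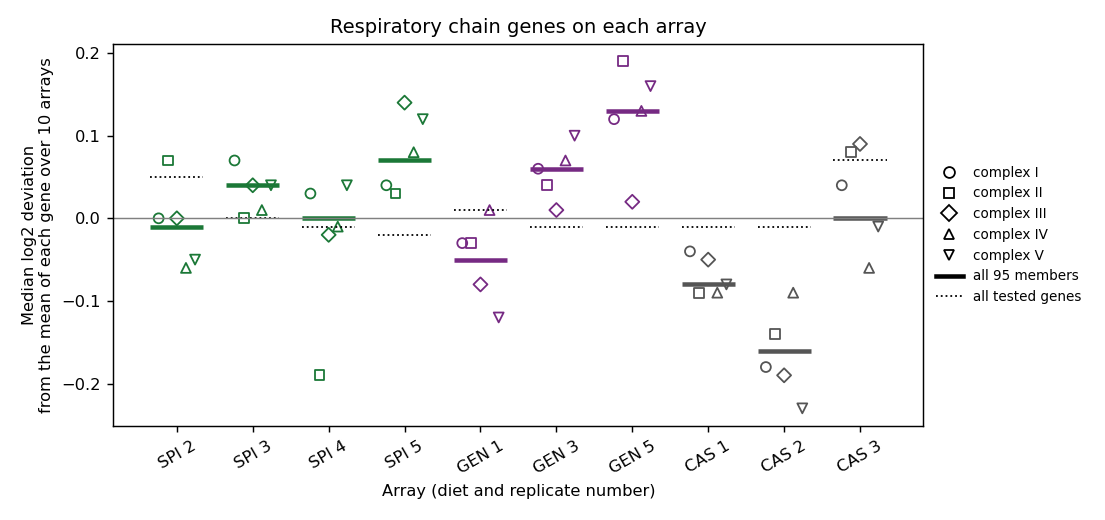
Median log2 deviation of the respiratory chain genes from each gene's mean over 10 arrays (vertical axis), for each array (horizontal axis). Thick bars are all 95 tested members, open symbols the 5 complexes and dotted lines all tested genes; the bar of CAS 2 lies at -0.16 and that of GEN 5 at 0.13, and GEN 1, at -0.05, lies below CAS 3.

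Marker genes of the cells in the gland also differed between arrays. The summed signal of 11 luminal epithelial markers was 17410, 14411, 8454 and 12033 on SPI 2, 3, 4 and 5, 19010, 20314 and 25034 on GEN 1, 3 and 5, and 22927, 13555 and 17481 on CAS 1, 2 and 3. The summed signal of 6 milk genes was 59881, 52554, 23688 and 44136 on SPI, 78446, 71989 and 94838 on GEN and 70973, 27327 and 48997 on CAS. GEN 5 was thus the highest array and CAS 2 the lowest CAS array for both lists, as for the chain, whereas CAS 1 was high for both lists and its chain median lay below 0. The lowest of all 10 arrays for both lists was SPI 4, whose chain median was 0.00, above that of CAS 2 at -0.16. Between GEN and CAS, 8 of 10 tested luminal markers lay above 0 (median 0.34), and so did 6 of 6 milk genes (median 1.07). In SPI against CAS the luminal list ran the other way from the chain subunits, with 0 of 10 above 0 (median -0.33), and 2 of 6 milk genes lay above 0 (median -0.04). In SPI against GEN, 0 of 10 luminal markers and 0 of 6 milk genes lay above 0 (medians -0.69 and -1.20). The part of these markers in the chain differences was not tested. In RNA of a whole gland, fewer cells of a type and less RNA per cell cannot be told apart.

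Tissues rich in mitochondria were checked as well. The summed signal of 22 skeletal muscle markers was 3032 to 3850 on SPI, 3618 to 3965 on GEN and 3544 to 10730 on CAS, the highest being CAS 1, where the muscle creatine kinase gene Ckm had a signal of 1362 against 155 to 365 on the other arrays. Most of that list was dim: 14 of the 22, the myoglobin gene Mb among them, were below the filter, and Mylpf was not on the array. The 6 brown adipocyte markers present summed to 678 to 1190 on SPI, 910 to 1229 on GEN and 946 to 1122 on CAS. Of these, Cidea and Cpt1b passed the filter, and Cidea, the brightest, had signals of 312 to 810 on SPI, 497 to 667 on GEN and 455 to 739 on CAS. Ucp1, the uncoupling protein gene that defines brown adipocytes, was below the filter with signals of 28 to 148 on SPI, 77.3 to 255 on GEN and 90.2 to 149 on CAS. White adipocyte markers (8 of 11 on the array) summed to 19130 to 22901 on SPI, 20304 to 21899 on GEN and 18841 to 22424 on CAS. Macrophage markers (8 of 10) summed to 5231 to 10344 on SPI, 6499 to 11414 on GEN and 7059 to 17612 on CAS. The 6 fibroblast markers summed to 32772 to 71909 on SPI, 47815 to 63148 on GEN and 48484 to 92400 on CAS. Basal epithelial markers (6 of 7) summed to 10688 to 14695, 8369 to 13735 and 8669 to 11520 on SPI, GEN and CAS. The basal sums were led by Acta2 and Myh11, which differed by 0.08 ± 0.14 and -0.05 ± 0.27 (SE) in GEN against CAS. The keratin genes Krt5 and Krt14 differed there by 0.91 ± 0.32 and 0.74 ± 0.49 (SE). Of 4 tested basal markers, 3 lay above 0 in SPI against CAS (median 0.15), 3 in GEN against CAS (median 0.41) and 2 in SPI against GEN (median -0.34). The 3'/5' ratio of beta-actin, which is higher where RNA is shorter, was 2.94 to 7.77 on SPI, 2.83 to 5.15 on GEN and 4.06 to 5.04 on CAS. GEN 5 had the lowest ratio (2.83) and SPI 4 the highest (7.77), and a fit with this ratio as a covariate was run. In it, 70 of 95 members lay above 0 in GEN against CAS (median 0.09) and 69 of 95 in SPI against CAS (median 0.09). In SPI against GEN 42 of 95 did so (median -0.02), beside 37 without the covariate (median -0.04). The GEN against CAS count at an unadjusted p under 0.05 in limma was 4, beside 9 without it. The part of RNA quality in the chain differences was not tested.

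Promoters of chain genes were compared with those of other genes because many of them are known to carry sites for the nuclear respiratory factor NRF1, the ETS factor GABP, YY1 and the estrogen-related receptors. Sequences were taken from RefSeq on the GRCr8 build, from 250 bases before to 50 bases after each gene's start, and 92 of the 102 members matched an entry. The NRF1 motif GCGCANGCG was found on either strand in 26 of 92 member promoters (28.3%), beside 6.26% of all 27457 promoters and 14.2% of those of 5980 tested genes. The ETS motif CCGGAAG was found in 28 (30.4%, beside 9.22% and 18.3%). The YY1 motif AAGATGGCG was found in 12 (13%, beside 1.93% and 4.38%), and the receptor motif TCAAGGTCA in 2 (2.17%, beside 0.412% and 0.184%). Any of the 4 motifs stood in 54 promoters (58.7%, beside 15.9% and 31.8%), in 39 of 65 subunit promoters and in 15 of 21 assembly factor promoters. A match is a description of the letters and not a bound site.

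Beside 54 of 92 member promoters (58.7%), 8 of the 12 members with an unadjusted p under 0.05 in any comparison held a motif in this stretch. The 6 of them whose motif lay in a window of 60 bases wholly before the start are shown, to let the motif be read in its setting beside the values that follow. Each is given 5′ to 3′ on the gene's strand in GRCr8, with the motif in capitals (on the opposite strand, the ETS motif reads CTTCCGG and the receptor motif TGACCTTGA; the NRF1 matches of Ndufa11 and Ndufaf4 overlap others on the opposite strand).
Atp5f1a, chr18:73567451-73567510, plus strand: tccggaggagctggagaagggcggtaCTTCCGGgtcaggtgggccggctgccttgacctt
Atp5mg, chr8:54130590-54130649, minus strand: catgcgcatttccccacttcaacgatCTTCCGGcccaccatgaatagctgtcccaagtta
Cox8a, chr1:213833647-213833706, minus strand: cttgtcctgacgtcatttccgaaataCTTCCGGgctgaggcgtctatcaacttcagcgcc
Atp5mc3, chr3:79220687-79220746, minus strand: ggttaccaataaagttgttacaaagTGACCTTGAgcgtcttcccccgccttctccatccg
Ndufa11, chr9:1637492-1637551, plus strand: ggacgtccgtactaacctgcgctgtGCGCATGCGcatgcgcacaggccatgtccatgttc
Ndufaf4, chr5:43401612-43401671, plus strand: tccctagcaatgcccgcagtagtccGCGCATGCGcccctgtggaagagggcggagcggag
The ATP synthase and Cox8a windows with an ETS motif belong to genes that were higher on GEN than on CAS at an unadjusted p under 0.05. So does the NRF1 window of Ndufa11, while the gene of the other NRF1 window shown, Ndufaf4, was lower. Atp5mg, higher on GEN, also held an NRF1 motif, 244 bases before its start, whose own window is not shown. The first bases of the Atp5mg window above are part of that motif and are not in capitals. Cox5b held an ETS motif and Ndufb8 a YY1 motif whose windows are not shown, and both genes were higher on GEN. Atp5mc3 also held an NRF1 motif, not shown. Ndufa7, Ndufa4, Uqcc3 and Atp5f1e held none of the 4 motifs in this stretch, and Ndufa4 was higher on GEN too. No relation between motif and direction was tested.

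Complex I, the NADH dehydrogenase, was represented by 6 core subunit genes, 28 accessory subunit genes and 5 assembly factor genes. Its median difference was 0.09 in SPI against CAS, 0.09 in GEN against CAS and -0.03 in SPI against GEN. Ndufb8, an accessory subunit of the membrane arm, had the largest difference among subunits. Its signals were 232, 378, 189 and 302 on SPI, 350, 426 and 410 on GEN and 278, 214 and 83.3 on CAS. The 3 GEN values lay above the 3 CAS values, and the lowest, on CAS 3, stood well below the others. The log2 difference was 1.21 ± 0.38 (SE) in GEN against CAS, with an unadjusted p of 0.00697 and an adjusted p of 0.825 in limma. It was 0.69 without CAS 3 and 1.56 without CAS 1. In SPI against CAS it was 0.64 ± 0.35 (SE), and 0.13 without CAS 3, so that array decided its size. In SPI against GEN it was -0.57.

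Ndufa7, another accessory subunit, had signals of 1869, 2053, 2184 and 1895 on SPI, 1654, 1769 and 1743 on GEN and 1649, 1729 and 1650 on CAS. All 4 SPI values lay above every GEN and CAS value, at a difference of 0.25 ± 0.11 (SE) from CAS, unadjusted p 0.0467 and adjusted p 0.987 in limma. Ndufa11, which stabilises the membrane arm, had signals of 820, 969, 777 and 1090 on SPI, 901, 969 and 1286 on GEN and 784, 738 and 870 on CAS. Its 3 GEN values lay above the CAS values by 0.39 ± 0.18 (SE; unadjusted p 0.0498, adjusted 0.825 in limma), or by 0.23 without GEN 5.

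Differences of the 6 core subunit genes of complex I ran from -0.22 to 0.19 in SPI against CAS, with 4 above 0, and from 0.00 to 0.31 in GEN against CAS (median 0.06). Core and accessory genes were not tested against each other. Ndufs1, which carries iron-sulfur clusters, had signals of 523, 517, 336 and 442 on SPI, 449, 507 and 670 on GEN and 495, 480 and 594 on CAS, with log2 differences of -0.22 ± 0.19 (SE) in SPI against CAS and 0.04 ± 0.21 in GEN against CAS. Ndufv1, which binds NADH and flavin, had differences of 0.06 ± 0.16 and 0.00 ± 0.17 (SE) in the same comparisons, and in both genes the 3 diets overlapped. Ndufa1, a small accessory subunit of the membrane arm, had signals of 5341, 6906, 7005 and 6757 on SPI, 6170, 6400 and 5462 on GEN and 5911, 6339 and 6226 on CAS, with differences of 0.07 ± 0.12 and -0.04 ± 0.13 (SE).

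The 5 complex I assembly factor genes all had a difference below 0 in GEN against CAS (median -0.10), and 4 of the 5 in SPI against CAS (median -0.08). Ndufaf4, needed for early assembly steps, had signals of 291, 290, 348 and 250 on SPI, 198, 262 and 227 on GEN and 296, 308 and 326 on CAS. The GEN values lay below the CAS values, with a difference of -0.44 ± 0.18 (SE; unadjusted p 0.0303, adjusted 0.825 in limma). Ndufaf5, which modifies a core subunit during assembly, had a difference of -0.18 ± 0.25 (SE) in the same comparison and 0.02 without CAS 3. The count of 5 did not hold without that array. Ndufaf3 and Ndufaf8 differed by only -0.07 ± 0.19 and -0.06 ± 0.24 (SE), so the count rested on other single arrays as well.

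Complex II, the succinate dehydrogenase, links the citric acid cycle to the chain. Its 4 subunit genes differed little between diets. Sdha, the flavoprotein, had signals of 1693, 1397, 1186 and 1532 on SPI, 1546, 1420 and 1858 on GEN and 1390, 1460 and 1581 on CAS. The log2 differences in GEN against CAS were 0.12 ± 0.16 for Sdha, 0.15 ± 0.16 for the iron-sulfur subunit gene Sdhb, 0.08 ± 0.15 for the membrane anchor gene Sdhc and 0.18 ± 0.16 for the other anchor gene, Sdhd (SE). In SPI against CAS they were -0.03, 0.08, 0.09 and 0.03 in the same order. No complex II gene reached an unadjusted p under 0.05 in any of the 3 comparisons. Sdhaf4, an assembly factor for the flavoprotein, was the most variable of them, with signals of 466, 287, 166 and 206 on SPI, 258, 277 and 263 on GEN and 277, 196 and 316 on CAS. Its SPI arrays alone spanned the range of all 10.

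Complex III, the cytochrome bc1 complex, had a median of 0.01 in SPI against CAS, 0.04 in GEN against CAS and 0.04 in SPI against GEN. Uqcc3, which takes part in assembly around cytochrome b, had signals of 180, 192, 252 and 194 on SPI, 124, 92.8 and 78.3 on GEN and 142, 180 and 458 on CAS. Every GEN value lay below every SPI and CAS value, and CAS 3 stood above the other 9 arrays. The difference in GEN against CAS was -1.23 ± 0.37 (SE; unadjusted p 0.00552, adjusted 0.825 in limma) and -0.73 without CAS 3. In SPI against GEN it was 1.07 ± 0.35 (SE; unadjusted p 0.00876, adjusted 0.558), and 0.92 to 1.25 with any 1 array left out. In SPI against CAS it was -0.16, and 0.34 without CAS 3, so the sign there rested on that array. The GEN signals and that of CAS 1 lay under 162, the geometric mean signal at the filter. The mean log2 signal of Uqcc3 was 7.39, beside 7.34 at the filter. It was thus tested only through its higher values on SPI, CAS 2 and CAS 3, and its p-values are a description. It is among the members counted at an unadjusted p under 0.05 in GEN against CAS and in SPI against GEN.

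The catalytic and structural subunits of complex III did not show that pattern. Cyc1, the cytochrome c1 gene, had signals of 1268, 1510, 1019 and 1878 on SPI, 1127, 1291 and 1746 on GEN and 1056, 1017 and 1100 on CAS. The CAS arrays were close together and the 3 GEN values lay above them, with differences of 0.39 ± 0.20 (SE; unadjusted p 0.0776, adjusted 0.987 in limma) in SPI against CAS and 0.37 ± 0.22 (unadjusted p 0.113, adjusted 0.827) in GEN against CAS. They were 0.24 in SPI against CAS without SPI 5 and 0.19 in GEN against CAS without GEN 5. Uqcrfs1, the Rieske iron-sulfur protein gene, differed by -0.10 ± 0.19 and 0.19 ± 0.21 (SE) in those comparisons. The core protein genes Uqcrc1 and Uqcrc2 differed by 0.09 ± 0.13 and -0.05 ± 0.19 in SPI against CAS and by 0.05 ± 0.14 and 0.25 ± 0.21 in GEN against CAS. Uqcrh, the hinge protein gene, differed by 0.11 ± 0.14 and 0.28 ± 0.15 (SE).

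Complex IV, cytochrome c oxidase, had 11 tested subunit genes outside the tissue isoforms. All 11 lay above 0 in SPI against CAS (median 0.13) and all 11 in GEN against CAS (median 0.16). The GEN against CAS number stayed at 11 when any array but GEN 3 was left out, and was 10 without GEN 3. The SPI against CAS number was 9 without SPI 5, 10 without SPI 4, 10 without CAS 2, 9 with the replicate block and 8 with quantile normalization. Both counts share the CAS arrays, and single members did not pass the adjusted test. Cox8a, a small membrane subunit, had signals of 5364, 5658, 4862 and 5656 on SPI, 5698, 5710 and 6639 on GEN and 4627, 5092 and 5158 on CAS. The GEN values lay above the other 2 diets, with a difference from CAS of 0.28 ± 0.12 (SE; unadjusted p 0.0364, adjusted 0.825 in limma). Cox5b, a subunit on the matrix side, had signals of 2365, 2470, 2290 and 2806 on SPI, 2516, 2634 and 2957 on GEN and 2294, 2139 and 2166 on CAS. Its GEN values lay above its CAS values by 0.29 ± 0.13 (SE; unadjusted p 0.0393, adjusted 0.825).

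Ndufa4, named for complex I but now counted as a subunit of complex IV, had signals of 2524, 2302, 1777 and 3370 on SPI, 2409, 3337 and 3218 on GEN and 2033, 1923 and 2426 on CAS. GEN 1 fell within the CAS range, and the difference was 0.48 ± 0.21 (SE; unadjusted p 0.0401, adjusted 0.825 in limma). Cox4i1, the common form of a nuclear subunit that binds adenine nucleotides, had signals of 6462, 5768, 6913 and 6810 on SPI, 6228, 6912 and 7134 on GEN and 6750, 6141 and 6159 on CAS. It differed by 0.03 ± 0.11 in SPI against CAS and 0.09 ± 0.12 (SE) in GEN against CAS, and its 3 diets overlapped. Cox6a1 differed by 0.17 ± 0.13 and 0.26 ± 0.14 (SE). Cox5a was read from a dim probe set with signals of 168 to 417 on SPI, 235 to 250 on GEN and 194 to 240 on CAS, since a brighter probe set that names it also names another locus and was not used; that probe set differed by -0.08 in SPI against CAS and 0.15 in GEN against CAS.

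The assembly factors of complex IV lay on both sides of 0. Cox17, a copper chaperone, had signals of 538, 784, 756 and 512 on SPI, 601, 742 and 671 on GEN and 642, 845 and 778 on CAS, with differences of -0.24 ± 0.18 in SPI against CAS and -0.17 ± 0.20 (SE) in GEN against CAS. Cox10 and Cox15, enzymes that make the heme a of this complex, differed by 0.20 ± 0.20 and -0.12 ± 0.18 in SPI against CAS and by 0.00 ± 0.21 and 0.01 ± 0.19 (SE) in GEN against CAS. The diets overlapped for all 3 genes.

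Several complex IV subunits exist as tissue isoforms, and most of these were dim. The heart and skeletal muscle form Cox6a2 had signals of 6.5 to 18.1 on SPI, 5.9 to 41.9 on GEN and 16.8 to 78.8 on CAS, and its highest value was on CAS 1, the array with the most muscle marker signal. Cox7a1, the form of heart, muscle and brown fat, had signals of 92.7, 28.3, 99.9 and 124 on SPI, 34, 34.1 and 34.4 on GEN and 27.8, 21.8 and 46.4 on CAS, so 3 of 4 SPI arrays were higher than the rest at a level below the filter. Cox8b lay at 7 to 10.9 on SPI, 9.8 to 17.1 on GEN and 6.5 to 13.6 on CAS. Cox6b2, the testis form, had signals of 104, 158, 117 and 190 on SPI, 175, 110 and 180 on GEN and 25.4, 94.2 and 82.2 on CAS. All SPI and GEN values of Cox6b2 were above the CAS values, and it was not tested because of its level.

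The lung form Cox4i2 and Ndufa4l2, both known to respond to low oxygen, were bright enough to test. Cox4i2 had signals of 284, 314, 376 and 394 on SPI, 256, 276 and 267 on GEN and 296, 338 and 298 on CAS. Its GEN values lay below all SPI and CAS values, with differences of -0.22 ± 0.17 (SE; unadjusted p 0.224, adjusted 0.851 in limma) in GEN against CAS and 0.35 ± 0.16 (unadjusted p 0.0503, adjusted 0.628) in SPI against GEN. Ndufa4l2 had signals of 203, 182, 218 and 284 on SPI, 236, 301 and 215 on GEN and 230, 283 and 162 on CAS, and its diets overlapped.

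**Figure D3:**
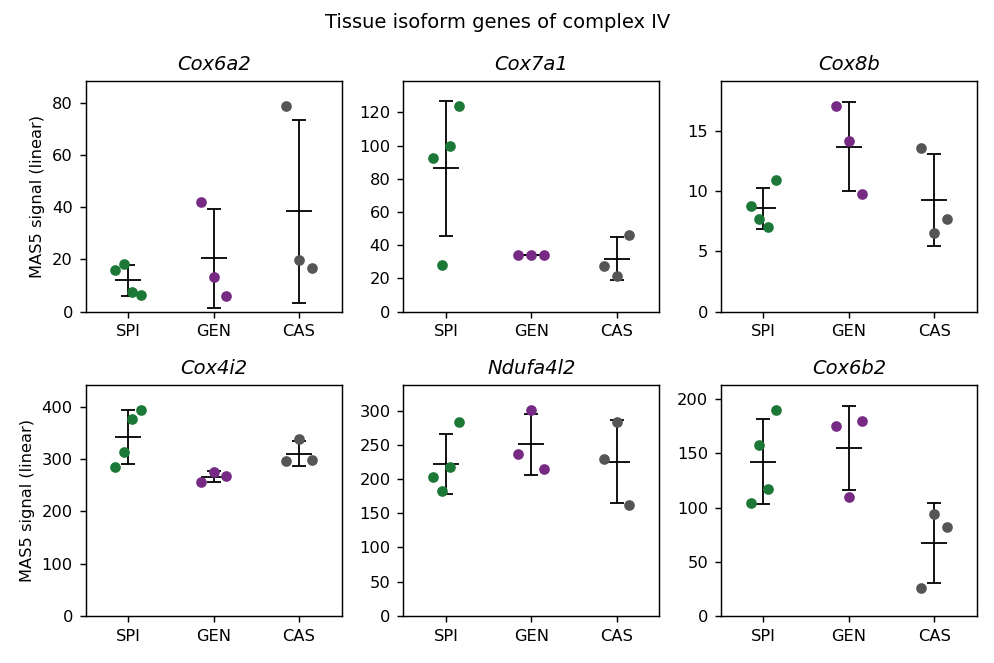
MAS5 signal (linear, vertical axes from 0 and different in each panel) of 6 isoform genes of complex IV on each array of the SPI, GEN and CAS diets; points are arrays, the long line is the mean and the bar the SD (n = 4, 3 and 3). Cox6a2 reaches 78.8 on 1 CAS array, 3 of the 4 SPI points of Cox7a1 lie above all GEN and CAS points, and the GEN points of Cox4i2 (256 to 276) lie below the other diets.

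Complex V, the ATP synthase, had a median of 0.17 in GEN against CAS, with 15 of 16 genes above 0. In SPI against CAS the median was 0.11 with 15 of 16 above 0, and in SPI against GEN it was -0.04 with 4 above 0. The GEN against CAS median of its 15 subunit genes was 0.18, but 0.10 without GEN 5 and 0.11 without CAS 2, where the median of the complex IV subunits was 0.14 and 0.17, so the complexes had no stable order. Of these 15 genes, 14 lay above 0 in SPI against CAS, but 12 without SPI 5, 12 without CAS 2 and 11 with the replicate block. In GEN against CAS 14 lay above 0, but 13 without CAS 2 and 11 with the replicate block. Atp5f1a, the alpha subunit of the catalytic head, had signals of 2884, 2544, 2083 and 2934 on SPI, 2693, 3319 and 3618 on GEN and 2514, 2317 and 2621 on CAS. The GEN values lay above the CAS values by 0.36 ± 0.16 (SE; unadjusted p 0.0424, adjusted 0.825 in limma). Atp5f1b, the catalytic beta subunit, differed by 0.05 ± 0.12 in SPI against CAS and 0.21 ± 0.12 (SE) in GEN against CAS, and Atp5f1c, the gamma subunit of the rotor stalk, by 0.26 ± 0.20 and 0.27 ± 0.21. For both of these the diets overlapped.

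Some subunits of the membrane part of the ATP synthase had SPI values above every CAS value. Atp5mc3, a gene for the proton-carrying c ring, had signals of 5275, 6080, 5682 and 6351 on SPI, 5656, 4909 and 6036 on GEN and 4718, 4743 and 5107 on CAS. All SPI values lay above all CAS values, with a difference of 0.27 ± 0.11 (SE; unadjusted p 0.0373, adjusted 0.987 in limma). Atp5mg, the membrane subunit g, had signals of 3277, 3523, 3534 and 3391 on SPI, 2994, 4109 and 4207 on GEN and 2851, 3066 and 3092 on CAS. Its SPI values lay above its CAS values by 0.19, and in GEN against CAS the difference was 0.31 ± 0.14 (SE; unadjusted p 0.0452, adjusted 0.825), or 0.47 without GEN 1, the 1 GEN array in the CAS range.

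Atp5f1e, the epsilon subunit of the central stalk, was the 1 subunit gene called in SPI against GEN at an unadjusted p under 0.05. Its signals were 5514, 6477, 7204 and 5736 on SPI, 5192, 4381 and 5066 on GEN and 5234, 4532 and 5709 on CAS. All 4 SPI values lay above the GEN values, by 0.35 ± 0.13 (SE; unadjusted p 0.0192, adjusted 0.563 in limma). Atp5if1, the inhibitor that blocks ATP hydrolysis when the proton gradient falls, had signals of 1025, 1081, 1030 and 1085 on SPI, 979, 1111 and 1172 on GEN and 1020, 961 and 1188 on CAS. It differed by 0.00 ± 0.13 in SPI against CAS, 0.04 ± 0.14 in GEN against CAS and -0.04 ± 0.13 (SE) in SPI against GEN.

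**Figure D4:**
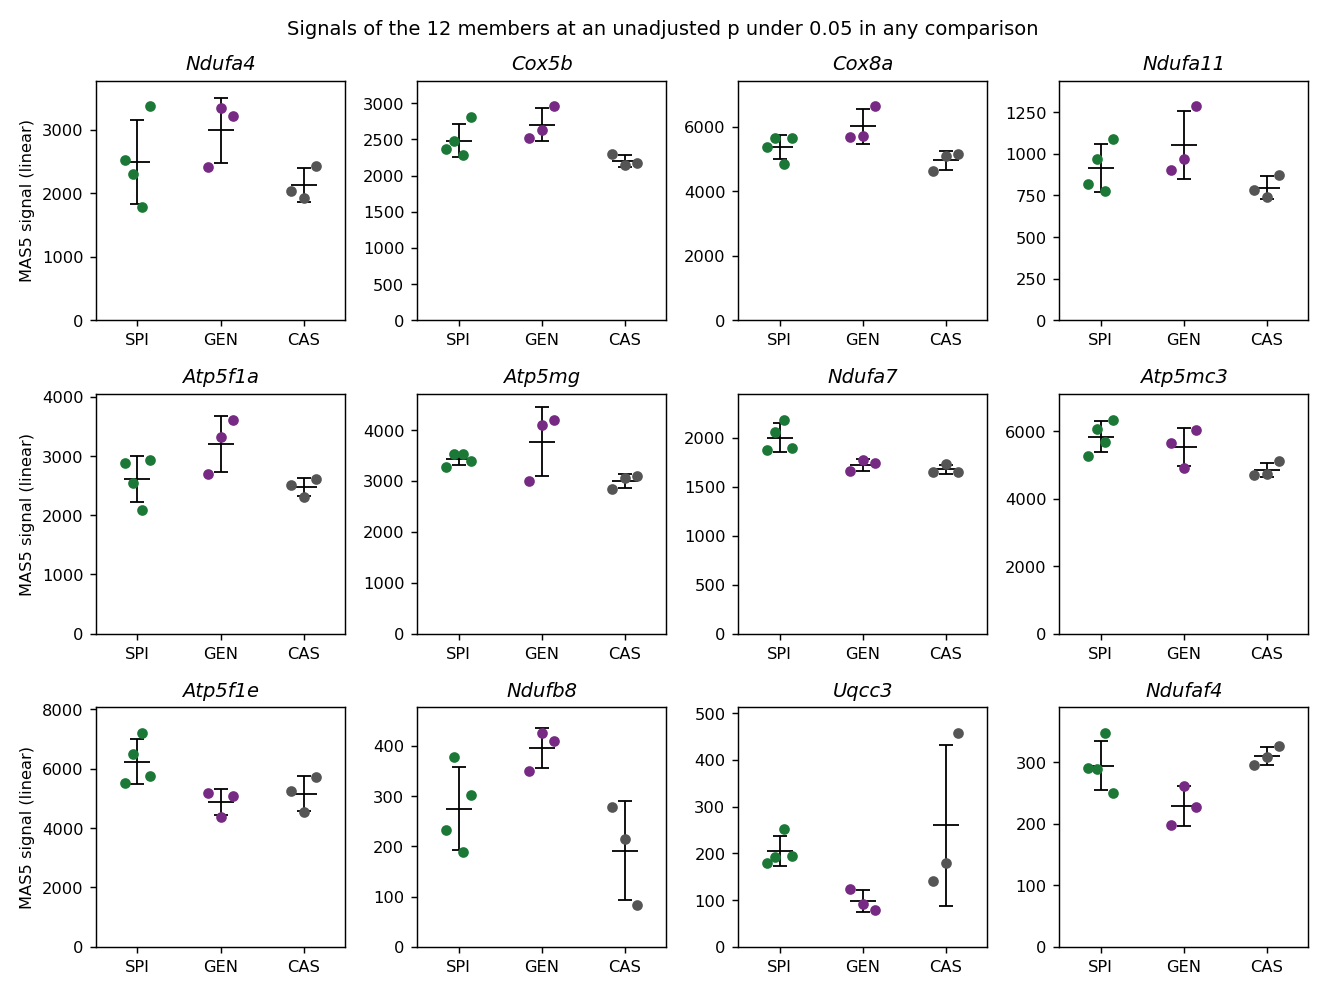
MAS5 signal (linear, vertical axes from 0 and different in each panel) on each array of the SPI, GEN and CAS diets for the 12 genes with an unadjusted p under 0.05 in any comparison; points are arrays, the long line is the mean and the bar the SD (n = 4, 3 and 3). Ndufb8 reaches its lowest signal, 83.3, on a CAS array, and Uqcc3 its highest, 458, also on a CAS array.

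Counted without a test, the arrays of the groups did not overlap for 5 members in SPI against CAS, all higher on SPI (Ndufa7, Ndufb11, Atp5mc3, Atp5mg and Atp5po), beside 4.6% of all probe sets in either direction and 1.78% higher. For GEN and CAS, 15 members did not overlap (15.8%, beside 11.1% of all probe sets). The 12 higher ones were Ndufa11, Ndufb8, Ndufb10, Ndufc2, Cyc1, Cox14, Cox5b, Cox6a1, Cox7b, Cox7c, Cox8a and Atp5f1a (12.6%, beside 5.7%), and the 3 lower ones Ndufaf4, Uqcc3 and Cox4i2 (3.16%, beside 5.41%). In SPI against GEN 7 did not overlap (7.37%, beside 8.5%), with Ndufa7, Ndufb3, Uqcc3, Cox4i2 and Atp5f1e higher (beside 4.13% of all probe sets) and Ndufc2 and Cox8a lower on SPI (beside 4.37%). The spread of the members within diets was small: the median residual SD was 0.17 log2 over the 95 members, 0.24 over all tested genes and 0.19 over the 1172 tested genes at or above the median member signal. Ndufb8, at 0.57, and Uqcc3, at 0.53, were the most variable members, and they also gave the largest differences in GEN against CAS.

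Other mitochondrial genes were set beside the chain. Of 18 tested assembly factor genes whose symbols fall outside the rule, 9 lay above 0 in SPI against CAS (median -0.01), 10 in GEN against CAS (median 0.02) and 9 in SPI against GEN (median 0.00), with 0 at an unadjusted p under 0.05 in limma and 0 after adjustment. Of 68 tested mitochondrial ribosomal protein genes, 34 lay above 0 in SPI against CAS (median 0.00), 40 in GEN against CAS (median 0.04) and 29 in SPI against GEN (median -0.03). Unadjusted p-values under 0.05 numbered 1 lower, 4 higher with 1 lower, and 3 lower in that order of comparisons. Of 15 tested genes of pyruvate dehydrogenase and the citric acid cycle, 6, 9 and 6 lay above 0 (medians -0.03, 0.04 and -0.06). Pdhb, a subunit of pyruvate dehydrogenase, differed by 0.36 ± 0.16 in GEN against CAS (SE; unadjusted p 0.039, adjusted 0.825 in limma), and was the 1 gene of that list at an unadjusted p under 0.05 there; SPI against CAS had 0 and SPI against GEN had 2, both lower.

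The carriers and porins, which exchange ADP, ATP, phosphate and metabolites across the mitochondrial membranes, had 6 of 11 genes above 0 in SPI against CAS (median 0.01). In GEN against CAS 11 of 11 lay above 0 (median 0.16), and in SPI against GEN 0 of 11 (median -0.22). Slc25a5, an ADP/ATP carrier gene, had signals of 6559, 6893, 5485 and 7250 on SPI, 6379, 8008 and 8544 on GEN and 5689, 5656 and 5541 on CAS. Its GEN values lay above the CAS values by 0.43 ± 0.14 (SE; unadjusted p 0.0087, adjusted 0.825 in limma). Of 15 regulators of mitochondrial biogenesis, 8 were on the array and 4 were tested, with 0 at an unadjusted p under 0.05 or after adjustment in limma in each of the 3 comparisons. Tfam, which packages mitochondrial DNA, had signals of 447, 525, 235 and 494 on SPI, 456, 571 and 629 on GEN and 355, 425 and 510 on CAS, with differences of -0.07 ± 0.26 and 0.36 ± 0.27 (SE) from CAS. The coactivator gene Ppargc1a was below the filter, at 1.4 to 28.3 on SPI, 1.1 to 4.2 on GEN and 1.4 to 6.5 on CAS.

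**Figure D5:**
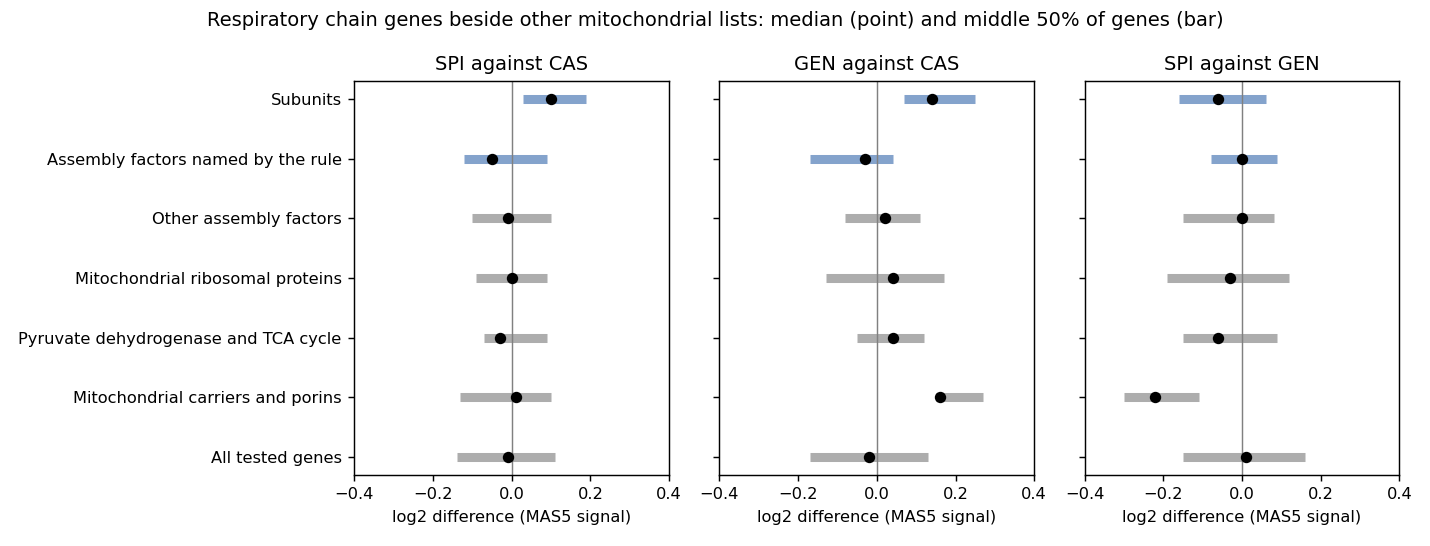
Median (point) and middle 50% of genes (bar) of the log2 difference in MAS5 signal (horizontal axes) for chain subunits, assembly factors, 4 other mitochondrial lists and all tested genes, in SPI against CAS, GEN against CAS and SPI against GEN. In GEN against CAS the subunits have a median of 0.14 and the carriers and porins 0.16, while mitochondrial ribosomal proteins stand at 0.04 and all tested genes at -0.02.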

How the data were processed

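RNA of 10 Affymetrix RAE230 arrays was compared between diets taken from the sample titles. The authors deposited 1 table of linear signal intensity per probe set, and the submitters' processing notes name MAS5, without a version. The values looked scaled to 1 trimmed mean per array, so differences in total RNA are not visible, and no depth applies: the number of arrays limits the precision (median 95% interval of a log2 difference, to either side, 0.41 in SPI against CAS, 0.44 in GEN against CAS, 0.41 in SPI against GEN).

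From 15923 probe sets, 57 controls were left out. Values under 1 (0.0637%) were set to 1 before log2. The lowest 40% by mean log2 signal (geometric mean under 162) were left out, and 9520 were tested with limma 3.58.1 in R 4.3.3: all 10 arrays in 1 fit, eBayes with trend, Benjamini-Hochberg adjustment over all 9520. Errors of log2 differences are SE. Symbols came from the platform annotation; a current gene record existed for 101 members, and their symbols were unchanged. The 9 probe sets that name a chain gene with another locus were not used. Their log2 differences ran from -0.08 to 0.37 in SPI against CAS, from -0.14 to 0.65 in GEN against CAS and from -0.41 to 0.34 in SPI against GEN. Comparisons were SPI against CAS, GEN against CAS and SPI against GEN. The fit was tested on simulated data.

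The members, marker and pathway lists, alternatives and the rule for named genes were chosen with earlier results of these data known. The rule named members at an unadjusted p under 0.05, the classical subunits and isoforms, the brightest, dimmest and most variable member of each complex, and leading genes of the other lists. Members listed by group overlap and Ndufa4l2, Cox6b2, Tfam, Ucp1, Mb, Csn2, Fabp4, Krt5, Krt14, Ndufaf3 and Ndufaf8 were named after their values were seen. Alternatives changed the filter, floor, normalization, centring, moderation, covariate, replicate block, probe set rule and each array in turn. Same-numbered arrays of different diets had an r of deviations of -0.19 to 0.13 over 6 pairs, within the -0.38 to 0.32 of differently numbered arrays. The numbers were not used as pairs in the main fit, but so few pairs cannot exclude a shared batch.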

Additional observations from a re-analysis of the deposited data

Results flagged for a closer look

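In the SPI group, the 1 group with enough arrays for this check, 4 of 102 members had an array far from the other 3, and chance gives about 1 in 20. Among the genes named, Ndufa1 had a signal of 5341 on SPI 2, against 6757 to 7005 on the other SPI arrays. Atp5f1c had a signal of 1908 on SPI 4, against 3018 to 3203 on the other SPI arrays; SPI 4 also had the highest beta-actin 3'/5' ratio, 7.77.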

How the results depend on the processing

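No member passed an adjusted p of 0.05 in limma under any alternative run. At an unadjusted p under 0.05, the 2 members of SPI against CAS became 4 with no filter, 5 with each array centred on its median, and 0 with quantile normalization, without the trend and with the replicate block (0 to 5 with 1 array left out). The 9 of GEN against CAS became 3 without the trend, 2 with the replicate block and 4 with the actin ratio as a covariate (2 to 12 with 1 array left out). The 2 of SPI against GEN became 5 with quantile normalization, 4 with median centring, 4 without the trend, 6 without moderation and 1 with the actin covariate (1 to 9 with 1 array left out; 9 without GEN 1, 8 without SPI 5). The median of SPI against CAS, 0.07, was 0.14 with median centring, where all genes stood at 0.06, and 0.04 to 0.11 with 1 array left out. It was 0.04 with quantile normalization, where all genes stood at 0.01, and 0.05 with the replicate block, with 61 of 95 above 0. That of GEN against CAS was 0.06 to 0.15 with 1 array left out, and 0.05 with the replicate block. That of SPI against GEN turned from -0.04 to 0.02 with median centring, where all genes stood at 0.07, and was -0.10 to -0.02 with 1 array left out. The check of same-numbered arrays cannot exclude a shared batch, so the replicate block fit is given beside the main fit. Atp5mg moved to 0.47 in GEN against CAS and to -0.28 in SPI against GEN without GEN 1. The cause of these changes was not tested.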
